A study of Homo sapiens and Homo sapiens
Mus with 12 samples.

Results

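The 10 genes described here are the hypoxia-inducible factor (HIF) subunits HIF1A, EPAS1 and ARNT, the HIF hydroxylases EGLN1, EGLN2, EGLN3 and HIF1AN, the ubiquitin ligase component VHL, and 2 feedback targets, CITED2 and ANKRD37. They were taken by gene symbol from the 21466 genes with values in the cultured cell table and the 26813 human genes in the tumor table. The members were chosen by their roles with the cultured log2 fold changes of CDH11 knockdown (KD) against control known, ANKRD37 having a very large one, so the cultured differences from control are a description and were not used as a test. The tests reported for these genes are sh#1 against sh#2 in cultured cells and the comparisons between tumors. EPAS1 against shCtrl in tumors is left out of these tests, as it met the low-count filter only through CDH11 KD tumors.

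UM-UC-3 is an established human bladder cancer cell line. It carried 1 of 3 GIPZ lentiviral constructs, and infected cells were sorted on GFP: a nonsilencing control (shCtrl), or 1 of 2 short hairpin RNAs against CDH11 (sh#1 and sh#2), which encodes the adhesion molecule cadherin-11. RNA of cultured cells was taken after 24 h in 12-well plates, with 3 libraries per group. For tumors, the same 3 lines in Matrigel were injected under the skin of 5-week-old male BALB/cAJcl-nu/nu nude mice, which lack a thymus and T cells, and 5 tumors per group were sampled at 4 weeks. CDH11 KD means sh#1 and sh#2 together. All groups carried a GIPZ vector and GFP, each group came from a single infected line, and nothing in the sources used here says that replicates were separate cultures, so p-values measure only the spread between these samples.

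HIF is a transcription factor made of an oxygen-regulated alpha subunit (HIF1A or EPAS1) and the stable partner ARNT. In oxygen, the prolyl hydroxylases EGLN1, EGLN2 and EGLN3 mark the alpha subunit, VHL binds the marked protein, and the proteasome destroys it, while HIF1AN hydroxylates an asparagine and so keeps coactivators away. These enzymes need oxygen, iron and 2-oxoglutarate, and they act on protein, so the RNA level of an alpha subunit does not report its activity. EGLN1, EGLN3, CITED2 and ANKRD37 are themselves known HIF target genes.

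Cultured libraries held 2273182 to 2777019 counts, and tumors 414849 to 1248977 human counts plus 10.4% to 30.0% of all counts on mouse genes, the highest share being in sh#1 tumor 1, which also had the fewest human counts. The targeted gene CDH11 had 2, 4 and 4 counts in shCtrl cells, 0, 0 and 1 with sh#1 and 1, 2 and 0 with sh#2. In tumors it was at 16.6 ± 7.65 CPM (counts per 1000000, libraries scaled by the trimmed mean of M-values; SD, n = 5) with shCtrl, 4.99 ± 3.18 with sh#1 and 10.1 ± 5.72 with sh#2, and tumors of both hairpins overlapped shCtrl. Of 8 markers listed for the cancer cells, 6 had counts in cultured cells and EPCAM and CDH1 were at 0. Of the 6, KRT19 had only 0 to 3 and KRT7 only 5 to 14 counts per library. The list is not particular to urothelium, as it includes VIM. The marker sum was 4705 to 5165 CPM with sh#2 against 2761 to 3140 CPM in the other cultured libraries, mostly through VIM (4080 ± 219 CPM with sh#2, 2237 ± 87.6 with shCtrl), while KRT8 was at 131 ± 11.1 and 120 ± 13.7, and its part in any difference with sh#2 was not tested. The tumor libraries of shCtrl, sh#1 and sh#2 were sequenced in 3 separate library mixes, so mix and group cannot be told apart.

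Promoter windows of 300 bases (250 before to 50 after a RefSeq start site, GRCh38.p14) were found for 9 of the 10 genes, all but VHL. They were searched on both strands for ACGTG and GCGTG, the core letters of the hypoxia response element. ACGTG on a plus and a minus strand overlaps in the palindrome CACGTG, the E-box that other factors also bind. Windows of ANKRD37, EGLN1, CITED2 and EGLN3 are shown, with matches to ACGTG or its complement in capitals. These members were picked for display because their cultured CPM was higher in every CDH11 KD library than in every shCtrl library. How many of all genes separate in this way was not counted, and EGLN3 rests on 1 to 13 counts per library.
ANKRD37 (chr4:185396591-185396890, plus strand): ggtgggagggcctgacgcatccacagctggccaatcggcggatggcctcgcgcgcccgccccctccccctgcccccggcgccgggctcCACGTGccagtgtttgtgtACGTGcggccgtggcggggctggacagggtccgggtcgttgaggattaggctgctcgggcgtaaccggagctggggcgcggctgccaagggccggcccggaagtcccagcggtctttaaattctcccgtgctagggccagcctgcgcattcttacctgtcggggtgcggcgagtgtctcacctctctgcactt
EGLN1 (chr1:231422238-231422537, minus strand): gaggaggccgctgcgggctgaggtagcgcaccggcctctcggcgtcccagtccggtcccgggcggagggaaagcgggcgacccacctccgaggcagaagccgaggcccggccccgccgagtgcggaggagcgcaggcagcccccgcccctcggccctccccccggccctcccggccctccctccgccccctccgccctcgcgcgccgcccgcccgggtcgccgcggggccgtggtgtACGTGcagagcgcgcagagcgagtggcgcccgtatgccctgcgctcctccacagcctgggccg
CITED2 (chr6:139374599-139374898, minus strand): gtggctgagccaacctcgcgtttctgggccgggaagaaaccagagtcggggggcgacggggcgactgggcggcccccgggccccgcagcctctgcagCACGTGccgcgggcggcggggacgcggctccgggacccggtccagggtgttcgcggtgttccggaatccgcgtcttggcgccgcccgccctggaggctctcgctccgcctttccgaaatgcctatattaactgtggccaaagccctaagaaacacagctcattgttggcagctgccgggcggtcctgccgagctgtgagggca
EGLN3 (chr14:33951025-33951324, minus strand): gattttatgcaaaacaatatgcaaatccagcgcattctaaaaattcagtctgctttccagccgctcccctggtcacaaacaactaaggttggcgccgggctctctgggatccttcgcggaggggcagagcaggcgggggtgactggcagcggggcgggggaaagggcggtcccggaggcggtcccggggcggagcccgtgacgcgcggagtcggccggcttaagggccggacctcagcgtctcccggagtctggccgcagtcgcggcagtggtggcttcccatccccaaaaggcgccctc

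The ANKRD37 window held 3 matches to ACGTG, 2 of which are both strands of 1 CACGTG, and the CITED2 window held 2 in the same way. CITED2 has 3 windows, and the other two held no ACGTG. The EGLN1 window held 1 match. The EGLN3 window held neither ACGTG nor GCGTG. Among 35116 promoter windows, 21.4% held ACGTG, 36.5% held GCGTG and 7.26% held CACGTG. Of the 13 windows of the members, 4 held ACGTG (1 each of EGLN1, EGLN2, CITED2 and ANKRD37) and 4 held GCGTG (1 each of HIF1A and EPAS1, and 2 of CITED2). The 2 CITED2 windows with GCGTG overlap and share a match. A match is only a description of the letters.

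In cultured cells, ANKRD37, which encodes a small ankyrin repeat protein, had few counts in control cells and many in both knockdown lines. The shCtrl libraries held 2, 2 and 12 ANKRD37 counts, beside 324, 340 and 409 with sh#1 and 320, 302 and 277 with sh#2. The groups were far apart, and the third shCtrl library held most of the control counts. The fitted difference of CDH11 KD from shCtrl was 6.05 ± 0.25 (log2, SE), and 7.38 without the third shCtrl library. The gene lies at chr4:185396021-185400628 (GRCh38, plus strand) and 54.7% of its 784 exonic bases also lie in exons of UFSP2 on the opposite strand, so reads cannot be split between them if strand was not used. UFSP2 had 110 to 194 counts in the cultured libraries.

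**Figure D1:**
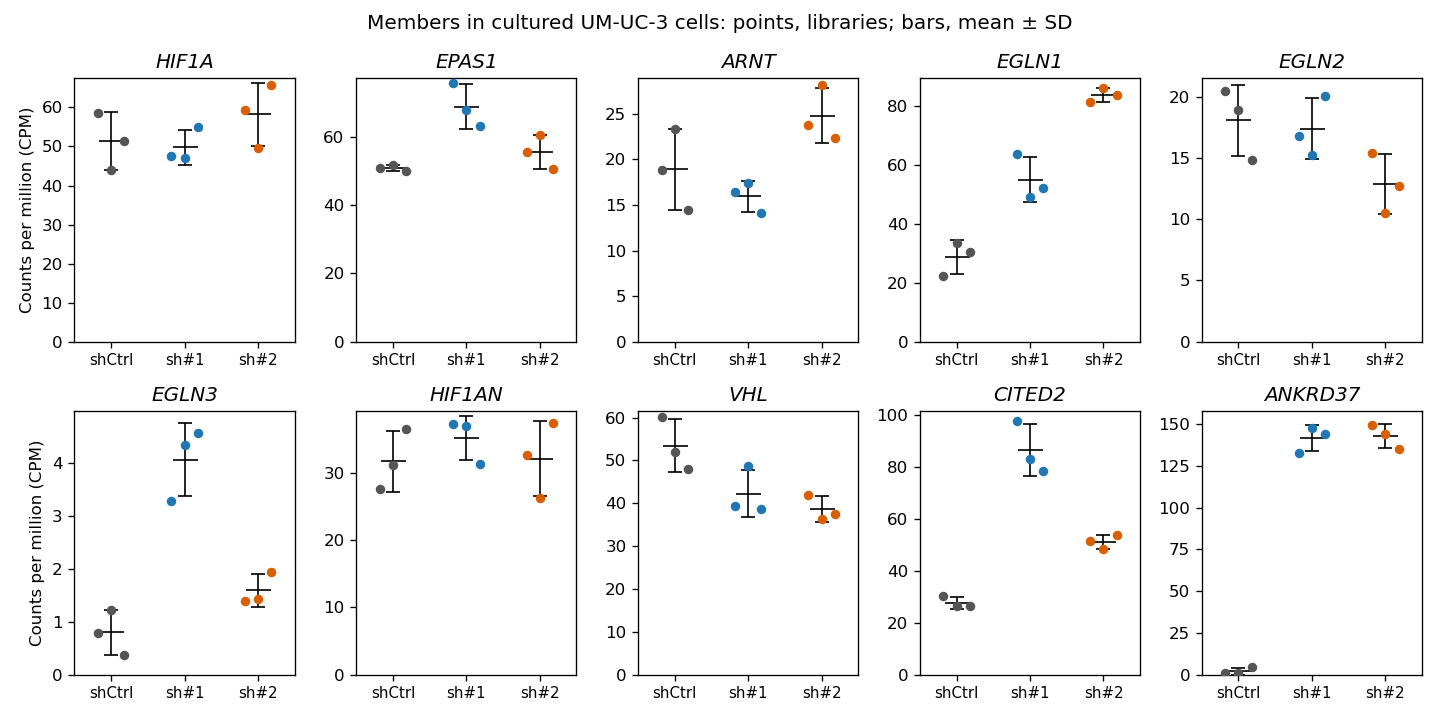
CPM of each member in the 9 cultured libraries (y axis from 0, a separate scale per gene). Points are libraries and bars are the mean and SD of 3. ANKRD37, EGLN1, EGLN3 and CITED2 lie above shCtrl in all 6 CDH11 KD libraries, and sh#1 and sh#2 separate for EGLN1, EGLN3, CITED2, EPAS1 and ARNT. The share of all genes that separate in these ways was not counted, and EGLN3 had at most 13 counts in a library.

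CITED2, an inhibitor that competes with HIF for the coactivators p300 and CBP, was also higher. CITED2 had 77, 64 and 69 counts with shCtrl, 238, 191 and 222 with sh#1 and 110, 101 and 110 with sh#2. All 3 groups were separate, and the difference of CDH11 KD from shCtrl was 1.32 ± 0.23 (log2, SE). The gene lies at chr6:139371807-139374648 (minus strand).

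Among the prolyl hydroxylases, EGLN1 (PHD2), the main oxygen sensor of most cells, was higher. EGLN1 had 57, 82 and 80 counts with shCtrl, 155, 113 and 148 with sh#1 and 174, 180 and 172 with sh#2, with no overlap between the 3 groups. Its difference of CDH11 KD from shCtrl was 1.26 ± 0.21 (log2, SE). EGLN3 (PHD3) was scarce and fell below the low-count filter. It had 2, 3 and 1 counts with shCtrl, 8, 10 and 13 with sh#1 and 3, 3 and 4 with sh#2. Over summed counts, EGLN3 per unscaled total was 4.95 times shCtrl with sh#1 (exact 95% interval 2.03 to 14.5) and 1.68 times with sh#2 (0.555 to 5.64). These intervals cover counting error only, and the ratios of mean CPM were 5.09 and 1.99. EGLN2 (PHD1) had 52, 46 and 39 counts with shCtrl, 41, 35 and 57 with sh#1 and 33, 22 and 26 with sh#2, and the shCtrl range overlapped that of CDH11 KD. HIF1AN, the asparaginyl hydroxylase FIH, had 70 to 96 counts with shCtrl and 55 to 91 with CDH11 KD, and its difference was 0.08 ± 0.15 (log2, SE).

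VHL, the substrate receptor of the ligase, had lower fitted values with both hairpins than with shCtrl. VHL had 153, 127 and 126 counts with shCtrl, 96, 112 and 110 with sh#1 and 90, 76 and 77 with sh#2. The sh#2 libraries lay below all shCtrl libraries, while 1 sh#1 library reached the shCtrl range in CPM. The difference of CDH11 KD was -0.40 ± 0.13 (log2, SE) and is given as a description only. Its adjusted p, under 0.05 in the main fit by edgeR, rose above that in 9 of 15 alternative analyses. Leaving out any 1 of the shCtrl libraries was among these. GENCODE places an unnamed antisense gene over 17.4% of the last 1000 exonic bases of VHL.

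The HIF subunits differed less. HIF1A had 149, 107 and 135 counts with shCtrl, 116, 108 and 156 with sh#1 and 127, 104 and 135 with sh#2, and the 3 groups overlapped. EPAS1, which encodes HIF-2 alpha, had 129, 126 and 131 counts with shCtrl, 185, 156 and 179 with sh#1 and 119, 127 and 104 with sh#2. In CPM its sh#1 libraries lay above all others. ARNT had 48, 57 and 38 counts with shCtrl, 40, 40 and 40 with sh#1 and 51, 59 and 46 with sh#2. In CPM its sh#1 and sh#2 libraries did not overlap, and shCtrl overlapped both.

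For CDH11 KD against shCtrl, 4 of the 9 members above the filter passed an adjusted p of 0.05 (3 higher, 1 lower), beside 17.4% of all 9859 genes. ANKRD37, among the higher ones, met the filter only through its CDH11 KD libraries. For sh#1 against shCtrl the count was 5, with EPAS1 as the added gene, beside 22.4%. For sh#2 against shCtrl it was 4, beside 38.3%. These comparisons share the shCtrl libraries and the first of them was known when the set was chosen, so nothing is read from the counts.

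The comparison of both hairpins asked how alike the members were in 2 lines with the same target. ANKRD37 stood at 142 ± 7.78 CPM with sh#1 and 143 ± 7.32 with sh#2 (SD, n = 3), a difference of -0.01 on the log2 scale (95% interval -0.20 to 0.18, adjusted p = 0.942). CITED2 was higher with sh#1, at 86.3 ± 10.1 against 51.1 ± 2.67 CPM, by 0.75 ± 0.12 (log2, SE, adjusted p = 1.28e-06). EGLN1 moved the other way, at 54.9 ± 7.61 CPM with sh#1 and 83.7 ± 2.41 with sh#2, a difference of -0.61 ± 0.12 (adjusted p = 9.18e-05). These 2 known HIF targets thus ranked the hairpins in opposite orders, and the libraries did not overlap for either gene.

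ARNT was lower with sh#1, at 16.0 ± 1.69 against 24.8 ± 3.02 CPM, a difference of -0.64 ± 0.20 (adjusted p = 0.0116). EPAS1 was higher with sh#1, at 68.9 ± 6.47 against 55.6 ± 5.02 CPM, by 0.30 ± 0.12 (adjusted p = 0.0493). The EPAS1 call sat at the threshold and was lost in 8 of 14 alternative analyses, while CITED2 and EGLN1 kept theirs in all 14. ARNT lost its call in 3 of 14, among them DESeq2 and leaving out the third sh#1 or the second sh#2 library. HIF1A (-0.22, 95% interval -0.47 to 0.04), VHL (0.12, -0.15 to 0.40), HIF1AN (0.13, -0.18 to 0.43) and EGLN2 (0.44, 0.01 to 0.87) did not pass by edgeR's quasi-likelihood test. The EGLN2 interval uses the normal quantile and leaves out 0, though the unadjusted p by that test was 0.0507. In all, 4 of 9 members passed, beside 24.7% of all genes tested. EGLN3 was 2.94 times as high per unscaled total with sh#1 (exact 95% interval 1.40 to 6.71 from summed counts of 31 and 10, counting error only). The ratio of mean CPM was 2.55, and edgeR's quasi-likelihood test with no low-count filter gave an adjusted p of 0.099.

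**Figure D2:**
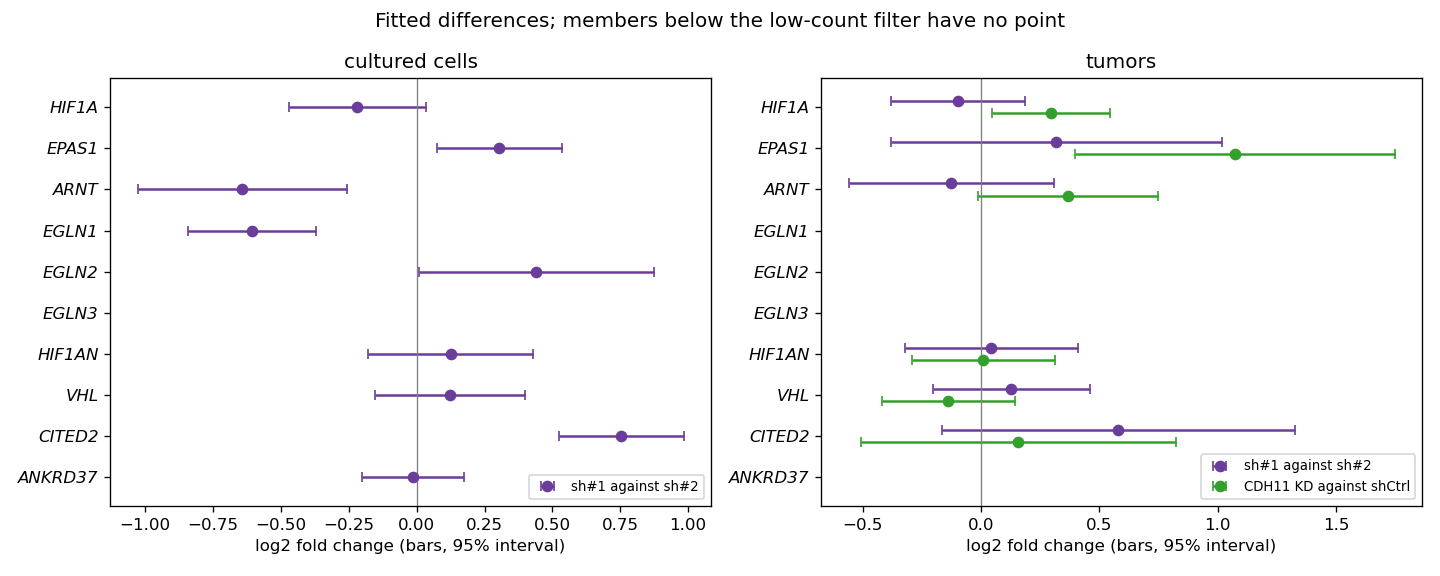
Fitted log2 fold changes (x axis) with 95% intervals for each member, in cultured cells (left, sh#1 against sh#2) and tumors (right, sh#1 against sh#2 and CDH11 KD against shCtrl). In culture the intervals of CITED2 and EGLN1 lie on opposite sides of 0 and ANKRD37 lies at -0.01. Members below the low-count filter have no point.

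The rest of the pathway was described from 3 lists that were drawn up with earlier results of these data known. Of 63 HIF target genes, 60 were tested in culture. Between hairpins 5 were higher and 44 lower with sh#1 by edgeR, beside 24.7% of all genes, and 2 were higher and 42 lower by DESeq2. The list median was -0.70 (log2) against 0.01 over all genes tested. The targets with the smallest adjusted p were all lower with sh#1. NDRG1, a hypoxia-induced differentiation factor, stood at 1213 ± 62.1 CPM with shCtrl, 1432 ± 31.1 with sh#1 and 4352 ± 104 with sh#2 (difference between hairpins -1.60 ± 0.06, log2, SE). BNIP3, a mitophagy receptor, stood at 525 ± 24.9, 727 ± 8.77 and 1654 ± 46.6 CPM (-1.19 ± 0.06). FAM162A, ERO1A and GPI differed by -1.41, -1.35 and -1.13. EGLN1 shared the direction of most of this list. The 5 targets higher with sh#1 by edgeR were DDIT4, HILPDA, EDN1, PFKFB3 and ZNF395 (named after their values were seen). Against shCtrl, 45 targets were higher with sh#1 and 57 with sh#2, beside 22.4% and 38.3% of all genes called in either direction, and 0 were lower with either by edgeR or DESeq2. At an unadjusted p of 0.05 by edgeR, 2 were lower with sh#1 and 0 with sh#2.

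Of 23 partners and degradation factors of HIF, 18 were tested, and 1 was higher and 3 lower with sh#1 than with sh#2, which is 22.2% beside 24.7% of all genes and so near the background. OS9, a lectin reported to bridge EGLN proteins and HIF1A, had the smallest adjusted p, at 120 ± 2.64 CPM with sh#1 and 178 ± 11.0 with sh#2 (-0.57 ± 0.09, adjusted p = 4.64e-07). ELOC, a subunit of the VHL complex, was higher by 0.28 ± 0.08 (adjusted p = 0.00909), and RACK1, which promotes oxygen-independent HIF1A degradation, differed by -0.17 ± 0.05 (adjusted p = 0.0174). The list median was -0.06.

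The hydroxylases need iron and 2-oxoglutarate, and 10 of 18 genes of cofactor supply differed between hairpins by edgeR, 5 in each direction, beside 24.7% of all genes. By DESeq2 2 were higher and 4 lower. HMOX1, which releases iron from heme, was at 33.4 ± 0.76 CPM with shCtrl, 59.7 ± 3.90 with sh#1 and 517 ± 46.2 with sh#2 (-3.12 ± 0.08 between hairpins, adjusted p = 3.98e-36). FTH1, the ferritin heavy chain that stores iron, was at 1464 ± 37.7, 1383 ± 43.5 and 2639 ± 45.2 CPM (-0.93 ± 0.05, adjusted p = 2.48e-20). TFRC, the transferrin receptor that brings iron in, was at 74.1 ± 4.25, 43.4 ± 3.90 and 21.4 ± 3.60 CPM, and was higher with sh#1 than with sh#2 by 1.02 ± 0.16 (adjusted p = 7.55e-07). The list median was 0.00, as its genes moved both ways.

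**Figure D3:**
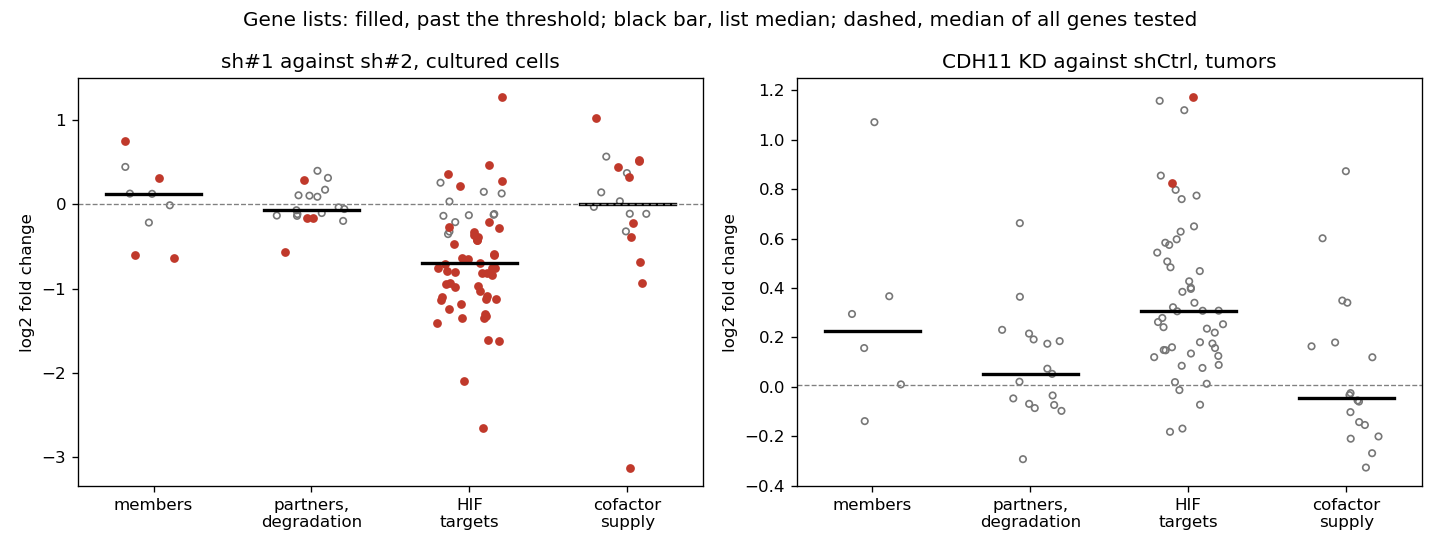
Log2 fold changes (y axis) of the members and of 3 gene lists, for sh#1 against sh#2 in cultured cells (left) and CDH11 KD against shCtrl in tumors (right). Filled points passed the threshold (adjusted p of 0.05 in culture, 0.1 in tumors). HIF targets centred on -0.70 in culture (60 tested) and 0.31 in tumors (50 tested), and 0 members passed in tumors.

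The genes whose cultured pattern was most like a member were named by the root mean square (RMS) difference of log2 values, each relative to its own shCtrl mean, over 9 libraries. For ANKRD37 these were BHLHE41 (RMS 1.71), HILPDA (2.12) and ADM (2.21) among 8110 candidates, all with a smaller rise than ANKRD37. These differences are large, so the genes are the nearest but not close. The ANKRD37 baseline also rests on 2 to 12 counts per shCtrl library. For EGLN3, the nearest were CITED2 (0.35), ADAMTS1 (0.37) and ST3GAL1 (0.37). EGLN3 had 1 to 4 counts in each shCtrl and sh#2 library, and 0.5 CPM was added before taking logs. Counting error and this addition shape its pattern, so the order of these 3 genes is not read. For HIF1A the nearest were CEP70, MBD2 and PLCB1 (0.10 each), which like HIF1A were nearly flat.

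In tumors, 6 members passed the low-count filter, and 0 of the 6 passed an adjusted p of 0.1 by edgeR for CDH11 KD against shCtrl, where 1.51% of all 9184 genes did. The counts were also 0 of 6 for sh#1 against shCtrl (1.48% of all genes), sh#2 against shCtrl (2.68%) and sh#1 against sh#2 (1.19%). At an unadjusted p of 0.05 by edgeR, EPAS1 and HIF1A passed for CDH11 KD and for sh#2 against shCtrl, EPAS1 alone for sh#1 against shCtrl, and 0 between hairpins. DESeq2 also gave 0 members in each of these comparisons. EPAS1 met the low-count filter only through CDH11 KD tumors, so its p-values against shCtrl are given as a description.

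EPAS1 met the low-count filter only through CDH11 KD tumors, so its differences from shCtrl and their p-values are a description and not a test. It had the largest fitted tumor difference among the 6. Its counts were 9, 3, 4, 6 and 5 with shCtrl, 5, 11, 4, 22 and 12 with sh#1 and 10, 8, 13, 8 and 3 with sh#2. The groups overlapped, and the CPM were 5.60 ± 1.84 with shCtrl, 13.3 ± 7.03 with sh#1 and 10.3 ± 3.32 with sh#2 (SD, n = 5). The difference of CDH11 KD was 1.07 ± 0.35 (log2, SE, adjusted p = 0.153), and adjusted p lay between 0.0883 and 0.334 over 21 alternatives. Of the 21, it passed without the third sh#1 tumor (1.18) and without the fifth shCtrl tumor (1.15), and in no other.

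HIF1A stood at 76.4 ± 12.0 CPM with shCtrl, 90.8 ± 15.5 with sh#1 and 95.7 ± 10.2 with sh#2, a difference of 0.29 ± 0.13 for CDH11 KD (adjusted p = 0.320). ARNT stood at 24.1 ± 8.21, 30.2 ± 6.72 and 32.8 ± 7.36 CPM (0.37 ± 0.19, adjusted p = 0.433). The interval for ARNT between hairpins in tumors was -0.56 to 0.31, which contains 0 and covers part of the cultured interval of -1.03 to -0.26. VHL stood at 96.5 ± 25.3, 90.6 ± 16.2 and 83.2 ± 18.1 CPM (-0.14 ± 0.14, adjusted p = 0.738). HIF1AN was the most even member, at 38.5 ± 3.81, 38.9 ± 5.96 and 38.5 ± 9.22 CPM (95% interval of the difference -0.29 to 0.31). In bulk tumor RNA, fewer tumor cells of a state and less RNA per cell cannot be told apart.

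**Figure D4:**
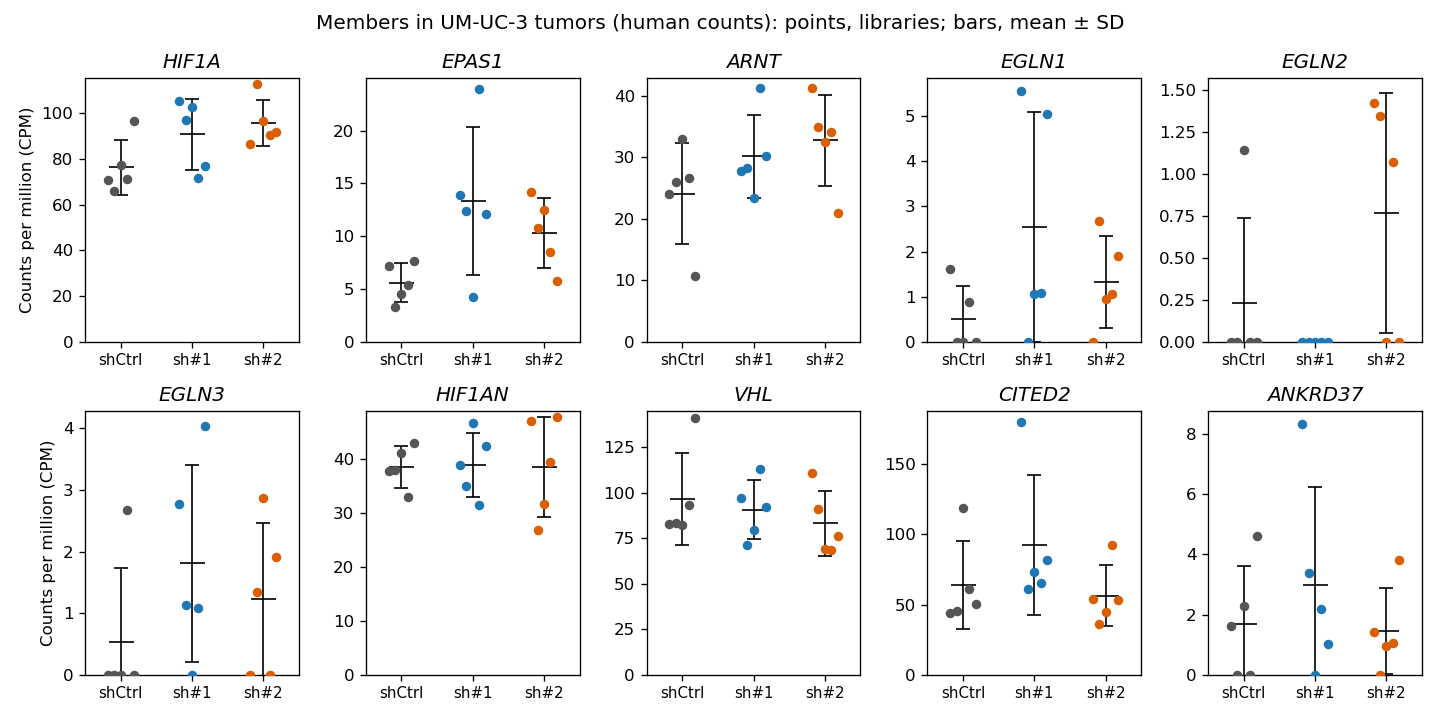
CPM of each member on human genes in 15 tumors (y axis from 0, a separate scale per gene). Points are tumors and bars are the mean and SD of 5, cut at 0 where the SD reaches below it. All groups overlap, and EGLN1, EGLN2, EGLN3 and ANKRD37 have at most 5 counts in any tumor.

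ANKRD37 and the 3 EGLN genes had few counts in the human tumor table, while CITED2 had 27 to 104 per tumor. ANKRD37 had 0 to 3 counts in each of the 15 tumors (21 in all), EGLN1 0 to 5 (17 in all), EGLN2 0 or 1 (4 in all) and EGLN3 0 to 4 (15 in all). These 4 genes were below the low-count filter, so their differences between groups were not tested in tumors. A count of 3 corresponds to 2.41 to 8.32 CPM in these tumors, and the counting error of such values is large. Other genes that were abundant in culture were also near 0 in the same table. ALDOA, a glycolytic enzyme of nearly every cell, had 1497 to 2802 counts in culture and 0 to 2 per tumor, and NDRG1 had 2911 to 9309 and 3 to 26 (both named after their values were seen). Low tumor counts of EGLN1, EGLN2 and ANKRD37 are not read here as low expression. The cultured and tumor tables came from different mapping steps and sequencers, so levels were not compared between them by a test.

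For 3 of these 4 genes the annotation places another gene on the same exons. In GENCODE v44, 95.9% of the last 1000 exonic bases of EGLN1 (chr1:231363751-231422287, minus strand) and 98.4% of those of EGLN2 (chr19:40798996-40808434, plus strand) also belong to another gene on the same strand, for EGLN2 the readthrough gene RAB4B-EGLN2. For ANKRD37 the shared part lies on the opposite strand (UFSP2, 6 to 25 counts per tumor). EGLN3 (chr14:33924227-34462774, minus strand) shares none of its canonical exons, and neither do EPAS1, ARNT, HIF1AN and CITED2. RAB4B-EGLN2 had 0 counts in the cultured table and had no values in the tumor table used here. How reads in shared exons were counted is not given in the sources used here, and its part in the low tumor counts was not tested.

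CITED2 had ample tumor counts, but they could not be assigned to a species. Human CITED2 had 55, 42, 104, 69 and 33 counts in the shCtrl tumors, and mouse Cited2 in the same tumors had 54, 39, 100, 69 and 28. With sh#1 the human counts were 65, 54, 69, 60 and 81 and the mouse counts 63, 52, 59, 57 and 74. With sh#2 they were 38, 27, 47, 87 and 28 for human and 36, 27, 48, 82 and 26 for mouse. The ratio of mouse to human lay between 0.848 and 1.02 in every tumor, and the largest gap was 10 counts. Among 528 genes of the same symbol that averaged 20 or more human counts and also 20 or more mouse counts, 4 (0.758%) had a ratio between 0.8 and 1.25 in every tumor (CITED2, CSNK1A1, EIF4G2 and MEX3C, a limit chosen after the counts were seen). The tumor differences of CITED2 (0.16 ± 0.34 for CDH11 KD, adjusted p = 0.896, and 0.58 between hairpins, 95% interval -0.17 to 1.32) thus cannot be given to the human cells.

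ANKRD37 and EPAS1 also had similar totals on both species, ANKRD37 at 21 human and 21 mouse counts with gaps of up to 2 in a tumor, and EPAS1 at 123 and 129 with ratios of 0.25 to 3. Both are too scarce for the comparison made for CITED2. For 4 others the human counts were far higher. Mouse Hif1a had 150 counts in all beside 1102 for human HIF1A, mouse Arnt 55 beside 377, mouse Vhl 11 beside 1139 and mouse Hif1an 22 beside 491. The EGLN genes were the reverse. EGLN1 had 143 mouse counts, 4 to 25 per tumor, beside 17 human counts. EGLN2 had 24 mouse beside 4 human counts and EGLN3 had 30 beside 15, both scarce on either species. Mouse Egln1 and Cited2 were the members above the filter among 1669 mouse genes tested, and 0 of these genes passed for CDH11 KD against shCtrl by edgeR, 92 at an unadjusted p of 0.05 and 1 by DESeq2 (Egln1 0.37 ± 0.38, adjusted p = 0.948; Cited2 -0.09 ± 0.34, adjusted p = 0.990).

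**Figure D5:**
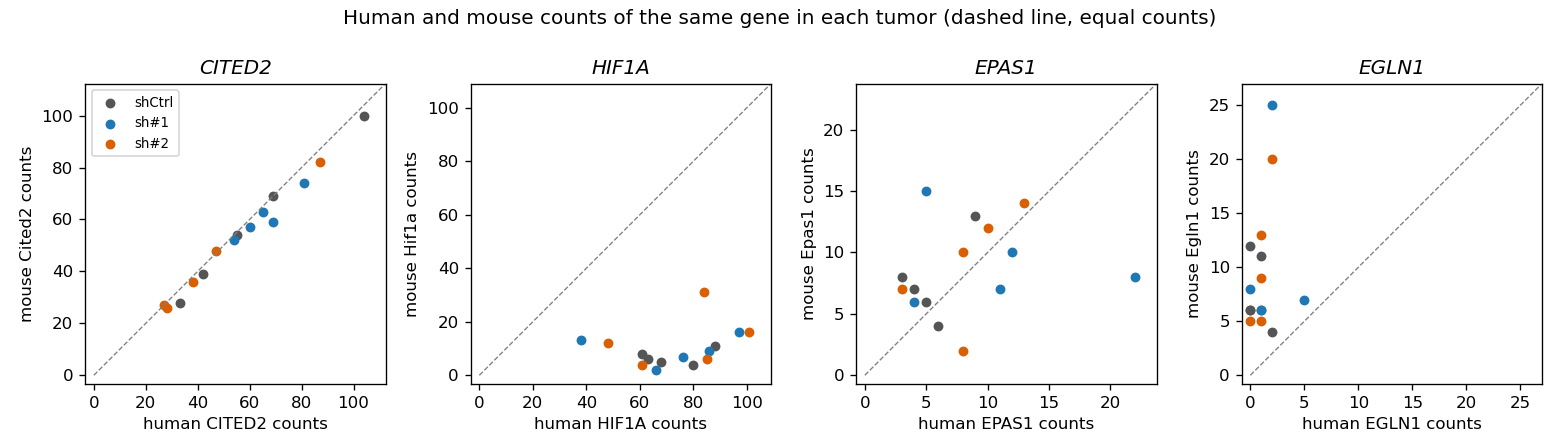
Human (x axis) and mouse (y axis) counts of the same gene in each of 15 tumors, coloured by group, with a dashed line at equal counts. CITED2 lies near the line with ratios of 0.848 to 1.02, HIF1A lies below it, EPAS1 scatters on both sides and EGLN1 lies above it.

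Few genes of the pathway lists passed in tumors. Of 50 HIF targets tested, 2 (4%, beside 1.51% of all genes) were higher with CDH11 KD, PPP1R3B, a glycogen-targeting subunit (0.82 ± 0.17, log2, SE, adjusted p = 0.0107), and CA12, a carbonic anhydrase (1.17 ± 0.23, adjusted p = 0.0158). VEGFA, KDM4C and RIOK3 had values of 0.80, 0.77 and 0.65 and did not pass. The list median was 0.31, with 46 of 50 above 0, beside a median of 0.006 over all genes tested. The share of all genes above 0 was not counted. The median was 0.53 for sh#1 and 0.05 for sh#2 against shCtrl. The difference between hairpins had a median of 0.38 over 50 targets in tumors and -0.70 over 60 in culture. The gene sets differ, and this contrast was not tested. By edgeR 0 of the 50 passed between hairpins in tumors, 10 at an unadjusted p of 0.05 and 1 by DESeq2. Of 17 partners and 18 cofactor genes, 0 passed for CDH11 KD by edgeR or DESeq2 and 2 of each list had an unadjusted p under 0.05 by edgeR, with medians of 0.05 and -0.04. The smallest adjusted p among them was that of FTH1 (0.87 ± 0.26, adjusted p = 0.108).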

How the data were processed

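The authors deposited unnormalized counts per gene for cultured cells and, separately, for human and mouse genes in tumors. Reads were 75 bases, single end. Per the methods, cultured reads were trimmed in CLC Genomics Workbench and mapped to hg38 with RaNAseq, and tumor reads were trimmed with Trim Galore and mapped with HISAT2. How mouse reads were separated is not given in the sources used here. The members and gene lists were chosen with earlier results of these data known. Genes with values for every library were filtered with filterByExpr, scaled by the trimmed mean of M-values and fitted with the edgeR 4.0.16 quasi-likelihood test (R 4.3.3), with Benjamini-Hochberg adjustment over all genes tested (9859 in culture, 9184 human in tumors) and thresholds of 0.05 in culture and 0.1 in tumors. SE is the fold change divided by the root of F, and a 95% interval is the fold change with SE times the normal quantile. Such an interval is slightly narrower than one matched to the test. Scripts were tested on simulated data. Replicate numbers did not pair samples: correlations of same-numbered libraries lay between -0.03 and 0.08 in culture and between -0.14 and 0.17 in tumors. Within groups, no pair of libraries agreed within sampling noise. Alternatives were DESeq2 1.42.0, upper quartile scaling, no filter, at least 10 counts in every library, a replicate block, a fit of 3 groups, the mouse to human ratio as covariate, and leaving out each library. Named genes were all members, the leading genes of each list by adjusted p in the hairpin fit in culture and the KD fit in tumors, and the nearest patterns. Some genes were not analysed here.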

Additional observations from a re-analysis of the deposited data

Results flagged for a closer look

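Of 9 members tested, 4 differed between sh#1 and sh#2 in cultured cells by edgeR's test of that difference, beside 24.7% of all genes. Values were higher with sh#1 for CITED2 (0.75, log2) and EPAS1 (0.30) and lower for ARNT (-0.64) and EGLN1 (-0.61). DESeq2 called 2 members. EPAS1 kept its call in 6 of 14 alternative analyses and ARNT in 11, while CITED2 and EGLN1 kept theirs in all 14. Each gene has 3 libraries per hairpin, and for these 4 genes the libraries did not overlap in CPM. How many of all genes separate in this way was not counted.

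In tumors, the highest sample stood far from the other 4 in 5 of 29 groups of members examined. The limit was a gap to the next sample of over 0.71 of the group's range (Dixon ratio). No chance rate is given, since this limit assumes normally distributed values and many groups were near 0 counts. Where the other 4 tumors are at 0, any count gives the largest possible ratio. CITED2 was at 180 CPM in sh#1 tumor 1, with the next at 81.8, and this tumor had the fewest human counts and the largest mouse share (30.0%). CITED2 was at 119 CPM in shCtrl tumor 3, with the next at 61.4. VHL was at 141 CPM in shCtrl tumor 5, with the next at 93.4. EGLN2 in shCtrl tumor 3 (1.14 CPM) and EGLN3 in shCtrl tumor 4 (2.67 CPM) rest on 1 and 3 counts beside 0 in the other tumors of the group.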

How the results depend on the processing

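The number of members past the threshold stayed within 1.5 times its main value in every alternative except these. Between hairpins in culture it fell from 4 to 2 with DESeq2. Leaving out single libraries gave 3 to 4 there, 3 to 4 for CDH11 KD against shCtrl in culture, 4 to 6 for sh#1 and 4 to 5 for sh#2 against shCtrl. In tumors it gave 0 to 1 for CDH11 KD, sh#1 and sh#2 against shCtrl, where EPAS1 passed without sh#1 tumor 3 or shCtrl tumor 5 for CDH11 KD and sh#1, and HIF1A passed without shCtrl tumor 5 for sh#2. EPAS1 met the low-count filter only through CDH11 KD tumors, so its passes are a description. The replicate block gave 3 members for CDH11 KD, 5 for sh#1 and 4 for sh#2 against shCtrl and 4 between hairpins in culture, and 0 in tumors. The cause of these changes was not tested. No called member value changed direction. With no filter, EGLN3 differed from shCtrl by 2.31 (log2) with sh#1 and 0.97 with sh#2. Counts over all genes for CDH11 KD ran from 882 (without the third shCtrl library) to 3291 (fit of 3 groups) in culture and from 48 (without shCtrl tumor 1) to 399 (without shCtrl tumor 5) in tumors, with 1719 and 139 in the main analysis. The filter of at least 10 counts in every library left out ANKRD37 in culture and EPAS1 and ARNT in tumors, so no value could be given there. Low human counts limit the tumor values of EGLN1, EGLN2, EGLN3 and ANKRD37.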
